A study of Danio rerio with 6 samples.

Results

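The clearance of egg RNA was followed in zebrafish embryos in which RNA polymerase II had been inhibited. The comparison sets whole AB embryos injected with alpha-amanitin (a-amanitin in the labels) and collected at 6 hours post fertilisation (hpf) against control embryos collected at 2 hpf, 4 hours earlier. Of the 32571 genes listed, 14462 had an FPKM (fragments per kilobase of transcript, scaled to the fragments sequenced) of at least 1 in at least one of these groups, and these are the genes described. Of these, 12621 reached that level in both groups, 1500 at 2 hpf alone and 341 in amanitin alone. Genes that reached it at 2 hpf alone had to be lower in amanitin, and those in amanitin alone had to be higher. The 171 genes whose higher value lay between 0.9 and 1 had a median log2 ratio of -0.34, and the 183 between 1 and 1.1 had -0.23.

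The study held 6 groups of AB embryos, each sequenced from pools of 40 to 50 whole embryos after removal of ribosomal RNA rather than by capture of poly(A) tails. The groups used here are the 2 hpf embryos, labelled only as control, the amanitin group at 6 hpf and, for side-by-side values, control 6 hpf and control B, a 6 hpf control labelled as belonging to the amanitin experiment. The dose of amanitin, the time of its injection and any injection given to the controls are not stated in the labels. The labels also do not say whether the 2 hpf embryos belonged to the amanitin experiment. The amanitin and 2 hpf embryos therefore differ in age, in treatment and perhaps in experiment, and these cannot be told apart in this comparison. The design states triplicates, but each group has 1 deposited value per gene, so no value carries a standard deviation and the read depth behind it is unknown.

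In fish as in other animals, the egg is loaded with RNA during oogenesis, and the first divisions run on that supply while the genome is silent. The supply is then cleared along separate routes. Some RNAs are removed by proteins and RNAs that the egg itself carries, often through loss of the poly(A) tail. Others wait for products of the embryo's genome, of which the microRNA miR-430 is the best known in zebrafish. Alpha-amanitin binds RNA polymerase II and blocks synthesis of messenger RNA, whereas RNA polymerases I and III are far less sensitive to it. FPKM are shares of all RNA sequenced, so a higher FPKM does not by itself show that RNA was made, and a lower FPKM combines loss of a transcript with gains of others. In whole embryos, fewer cells of a type and less RNA per cell cannot be told apart either.

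Genes known to be transcribed from the embryo's own genome had low RNA in the amanitin embryos beside the 6 hpf controls. A list of 71 rows of patterning genes of the early embryo summed to 369.7 FPKM at 2 hpf and 203 in amanitin. The same rows summed to 6104 in control 6 hpf and 6093 in control B. The 35 rows of the enveloping layer and the yolk syncytial layer, the outer epithelium and the layer over the yolk, summed to 835, 276, 7622 and 8539.8 FPKM in the same order of groups. Of 84 rows of both lists at 10 FPKM or more in control B, 3 were at 10 or more in amanitin. These were the adhesion molecule epcam (800.3 FPKM at 2 hpf, 236 in amanitin), the transcription factor sox11b (159 and 168) and the keratin krt8 (8.9 and 15.8), all above 1 FPKM at 2 hpf. At 2 hpf epcam held 800.3 of the 835 FPKM of its list, and in amanitin 236 of 276. In the patterning list sox11b held 159 of 369.7 and 168 of 203. The difference between 2 hpf and amanitin in the layer sums therefore rests on epcam.

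Some patterning genes also had RNA at 2 hpf. Of the 20 that reached 1 FPKM in either group, 18 were tested, of which 11 fell and 0 rose in the authors' deposited table, and at an unadjusted p under 0.05 from Cuffdiff 14 were lower and 0 higher. Of all genes tested in that table of the authors, 44.1% fell and 22.2% rose. The patterning genes' median log2 ratio (amanitin over 2 hpf, FPKM + 1) was -1.24, and without an FPKM minimum it was -0.052. Of the 20, 19 reached 1 FPKM at 2 hpf and 10 in amanitin. Genes that passed the minimum only through 2 hpf had to be lower in amanitin. The counts of falls and the median of -1.24 therefore follow in part from that minimum. The retinoic acid-degrading enzyme cyp26a1 stood at 57.6 FPKM at 2 hpf and 2.36 in amanitin, against 66.6 in control 6 hpf and 95.9 in control B. The BMP target id1 stood at 22.2 and 2.15, against 931 and 674 in the 6 hpf controls. For both genes amanitin was the lowest of the 4 groups.

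Across all genes, falls outnumbered rises, also among changes of 4-fold and 8-fold or more. By the q-values of the authors' deposited table, 6160 genes fell and 3100 rose of 13957 tested, which is 44.1% and 22.2%. The counts of each gene list are to be read against these shares, since genes in general went both ways. A gene is said to have fallen or risen only where the q-value of that table was under 0.05. Sizes are the log2 of the ratio of FPKM + 1, amanitin over 2 hpf, called the log2 ratio from here on. Members of a gene list are named by the lowest and the highest ratio among its called genes that reached 5 FPKM. By that measure 4098 genes (28.3%) were at least 2-fold lower and 795 (5.5%) at least 2-fold higher, so 16.2% of the differing genes were higher. Centred on the median gene that share was 37.9%. Of the genes that fell in the authors' deposited table, 1392 were at least 4-fold lower and 368 at least 8-fold lower, against 66 and 11 that rose by as much. The log2 ratio of all genes had a median of -0.34, quartiles of -1.13 and 0.32, and 5th and 95th percentiles of -2.60 and 1.04. The lowest was -6.61 and the highest 7.36, the latter in the small nucleolar RNA SNORD65, which is listed at 0 FPKM at 2 hpf, so that its ratio depends on the pseudocount. Centring on the median gene adds 0.34 to each log2 ratio and centring on cytosolic ribosomal protein genes adds 0.054.

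**Figure D1:**
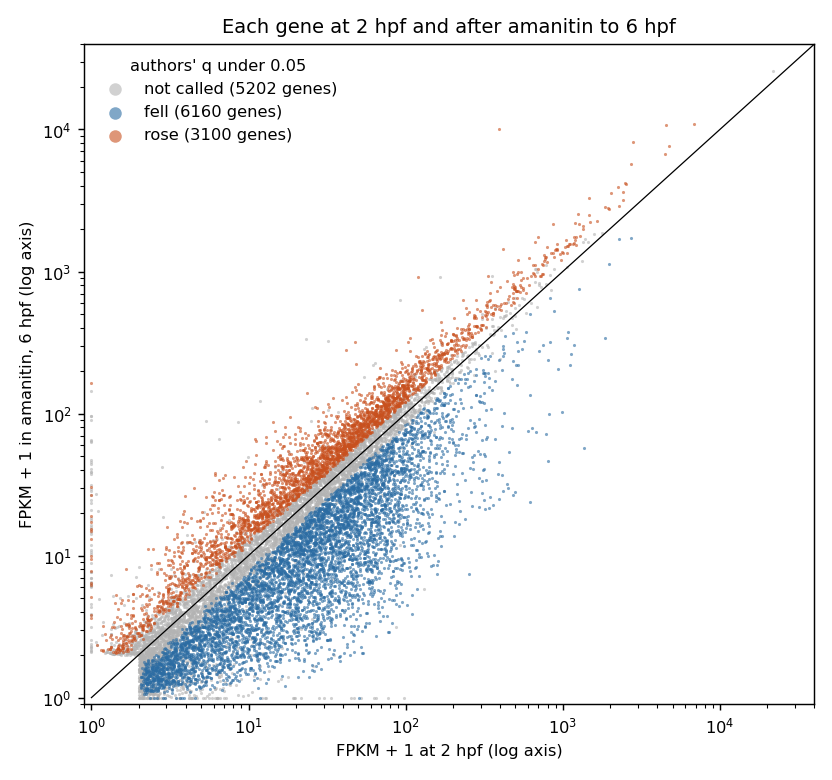
Each point is a gene, with FPKM + 1 at 2 hpf on the horizontal axis and FPKM + 1 in amanitin at 6 hpf on the vertical axis, both logarithmic, and the line marks equal values. The 6160 genes that fell spread far below the line, while most of the 3100 that rose lie nearer to it on the other side.

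The most abundant egg RNAs that were at least 4-fold lower, leaving aside placeholder names, small RNAs and rows that share a symbol or locus, came from unrelated families. The claudins cldnd and cldng, membrane proteins of tight junctions, led by level. For cldnd (ENSDARG00000006580, chromosome 21, 25157479 to 25158258 on Zv9) the values were 1853 FPKM at 2 hpf, 341 in amanitin, 245 in control 6 hpf and 184 in control B. For cldng (ENSDARG00000003701, chromosome 1, 33277724 to 33279850) they were 1373, 55.9, 97.8 and 67. The cytoskeletal factor mid1ip1l, known from the maternal-effect mutant aura, stood at 1129 FPKM at 2 hpf, 262 in amanitin, 179 in control 6 hpf and 124 in control B. All 3 genes were high at 2 hpf and low in each of the 6 hpf groups, treated or not.

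The metallothionein mt2, a metal-binding protein, stood at 809 FPKM at 2 hpf, 45.4 in amanitin, 77.4 in control 6 hpf and 60.6 in control B. The carbonic anhydrase gene ca15b, whose RNA is a component of germ plasm, stood at 781, 71.2, 102 and 71.9 FPKM in the same order. The oogenesis-related gene org stood at 675, 72.8, 92.6 and 74.6. For mt2 the amanitin value lay below those of both 6 hpf controls, and for ca15b and org it was close to that of control B. The autophagosome protein map1lc3c went from 636 to 78.5 FPKM, the endoplasmic reticulum chaperone hspa5 from 614 to 135 and the mitochondrial ATP-Mg carrier slc25a25a from 601 to 74.4. Control B stood at 69.2, 139 and 72.9 FPKM for these genes, close to the amanitin value of each.

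The adaptor btg4 (ENSDARG00000035171, chromosome 5, 59273721 to 59275804) recruits the CCR4-NOT deadenylase to RNA in the mouse egg. Its own RNA was 26.1-fold lower in amanitin than at 2 hpf, with 618 FPKM at 2 hpf, 22.7 in amanitin, 58.4 in control 6 hpf and 29.5 in control B. A different pattern was seen for the cathepsin ctssb.1, a lysosomal protease, and for rdh10b, an enzyme that oxidises retinol. The values of ctssb.1 were 982 FPKM at 2 hpf, 101 in amanitin, 638 in control 6 hpf and 591 in control B. Those of rdh10b were 484, 25.8, 209 and 207. Both were low in amanitin alone among the 6 hpf groups. Each of these 12 genes had a q of 0.000123 in the authors' deposited table, the smallest value that this comparison holds.

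**Figure D2:**
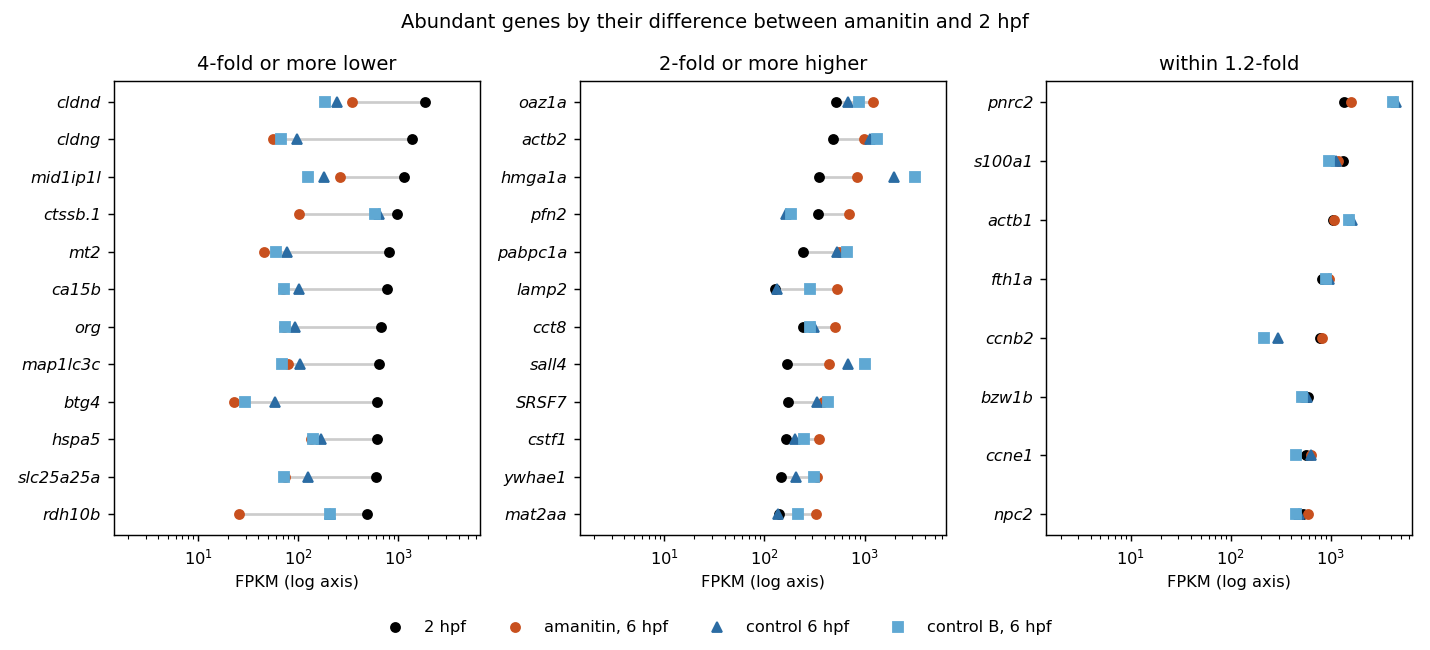
FPKM (logarithmic axis) of the most abundant genes that were at least 4-fold lower in amanitin than at 2 hpf (left), at least 2-fold higher (middle) or within 1.2-fold (right), with points for the 2 hpf control, amanitin, control 6 hpf and control B. In the left panel amanitin lies furthest below the 6 hpf controls for ctssb.1 and rdh10b. For the other genes it lies nearer to them, and above both for cldnd and mid1ip1l.

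Oocyte and egg genes as a list were low after amanitin. Of 38 measured members, 30 fell and 3 rose in the authors' deposited table (78.9% and 7.9%), with a median log2 ratio of -0.98. Of all tested genes 44.1% fell and 22.2% rose. Their summed FPKM was 13287 at 2 hpf, 5611 in amanitin, 4579.5 in control 6 hpf and 3371 in control B. Of the members that rose, cyclin A1, ccna1, a cyclin of meiosis and of the early divisions, stood at 846 FPKM at 2 hpf and 1351 in amanitin. Its values in control 6 hpf and control B were 420.5 and 278, so the amanitin embryos had the highest level of the 4 groups. The exon junction protein magoh, which also rose, stood at 269.7 and 412 FPKM, with 512 and 493 in the controls.

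Germ plasm genes, which build the granules that set aside the germ cells, divided. Of 19 measured, 10 fell and 6 rose in the authors' deposited table (52.6% and 31.6%), and the median was -0.66. Of all tested genes 44.1% fell and 22.2% rose, so genes in general also went both ways. Besides ca15b, the piRNA pathway gene TDRKH fell, from 56.2 to 9.58 FPKM, with 8.37 in control 6 hpf and 6.04 in control B. The ring finger gene mkrn4, of the makorin family, rose from 909 to 1444 FPKM, and stood lower in the controls, at 566 and 422. The Argonaute-family gene piwil1, whose row overlaps that of another gene, rose from 28.3 to 54.1 FPKM, with 18.6 and 23.1 in the controls.

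A short list of reported miR-430 targets went both ways. Of 9 measured, 3 fell and 6 rose in the authors' deposited table (33.3% and 66.7%), with a median of 0.52. Of all tested genes 44.1% fell and 22.2% rose. The germ cell gene nanos3 fell from 91.3 to 32.2 FPKM, against 23.9 in control 6 hpf and 15.5 in control B. The Balbiani body organiser buc fell from 546 to 286, against 96.5 and 80.5. For both genes the amanitin value lay between the 2 hpf value and those of the 6 hpf controls.

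Nuclear-encoded messages for the mitochondrion had low medians. Mitochondrial ribosomal proteins, which translate the mitochondrion's own messages, had the lowest median of the 42 lists with a measured member, at -1.93. Of 72 tested, 66 fell and 1 rose in the authors' deposited table, which is 91.7% falling where 44.1% of all tested genes did. All 74 measured reached 1 FPKM at 2 hpf and 69 in amanitin, so some passed the minimum only through 2 hpf and had to be lower. Without an FPKM minimum the median was also -1.93. The large-subunit gene mrpl14 stood at 85.5 FPKM at 2 hpf, 3.55 in amanitin, 18.8 in control 6 hpf and 16.6 in control B. Its fellow mrpl54 stood at 45.8, 1.76, 38.3 and 35.3, so in the controls it had kept most of its 2 hpf level. The row that rose, MRPL2, stood at 24.5 and 31.8 FPKM, with 25.5 and 24.8 in the controls.

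The respiratory complexes gave like medians. Complex I, which takes electrons from NADH, had a median of -1.66, with 40 of 48 measured genes falling and 2 rising in the authors' deposited table. Complexes II and III together had a median of -1.33, with 11 of 13 falling and 1 rising in the authors' deposited table. Complex IV, cytochrome c oxidase with its assembly factors, had -1.82, with 19 of 22 falling and 0 rising in the authors' deposited table. At an unadjusted p under 0.05 from Cuffdiff, 19 complex IV genes were lower and 0 higher. All 22 complex IV genes reached 1 FPKM at 2 hpf and 20 in amanitin, and without an FPKM minimum their median was -1.53. ATP synthase had -1.76, with 15 of 19 falling and 1 rising in the authors' deposited table. Of those tested, 85.1%, 84.6%, 86.4% and 78.9% fell in that order of lists, against 44.1% of all genes. The shares rising were 4.3%, 7.7%, 0% and 5.3%, against 22.2%.

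The named members ran in both directions. The accessory subunits ndufa5 and ndufa2 of complex I stood at 35.3 and 60.5 FPKM at 2 hpf and at 2.72 and 5.42 in amanitin. In control B they were at 58.4 and 45.4. The core subunit ndufv1, which binds NADH, rose from 42.5 to 60 FPKM, with 27 and 21.4 in the controls. The small subunit uqcrq of complex III fell from 160.0 to 12.4, and the flavoprotein sdha of complex II, which also acts in the citric acid cycle, rose from 48.1 to 63.2. The ATP synthase gene atp5l, a subunit of the membrane part, fell from 218 to 15.6, while atp5a1, of the catalytic head, rose from 279 to 410.3. The largest fall of complex IV genes was that of its assembly factor COX20, from 76.6 to 1.91 FPKM, with 22.2 and 25.6 in the controls. Among these genes the controls at 6 hpf ranged from well below the 2 hpf level, as in uqcrq (90.7 in control B) and atp5l (33.8), to above it, as in ndufa5.

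Import of proteins into the mitochondrion had a median of -1.22. Of 24 measured, 18 fell and 3 rose in the authors' deposited table (75% and 12.5%, against 44.1% and 22.2% of all tested genes). All 24 reached 1 FPKM at 2 hpf and 20 in amanitin, so some passed the minimum only through 2 hpf and had to be lower. Without an FPKM minimum the median was -1.18. The co-chaperonin hspe1 fell from 135 to 11.8 FPKM, with 123 and 95.7 in the controls, and the small chaperone timm8b of the intermembrane space from 84 to 7.15, with 22.3 and 20.8. Its relative timm13 rose from 66.9 to 91.6, and the import receptor tomm70a from 131 to 164. The 13 rows of messages encoded by the mitochondrial genome were all listed at 0 FPKM in every group, so the table says nothing of them. Enzymes of glycolysis and the citric acid cycle had a median log2 ratio of -0.30, close to that of all genes and 0.041 when centred on it. Of these 42 enzymes, 19 fell and 10 rose in the authors' deposited table (45.2% and 23.8%). The citric acid cycle's isocitrate dehydrogenase subunit idh3a fell from 74.5 to 9.75 FPKM, and dlat, of pyruvate dehydrogenase, rose from 13.1 to 26.8. The list also took in cytosolic enzymes that belong to neither pathway. Of these, isocitrate dehydrogenase idh1 fell from 114 to 7.19 FPKM and the aminotransferase got1 rose from 59.9 to 133.

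**Figure D3:**
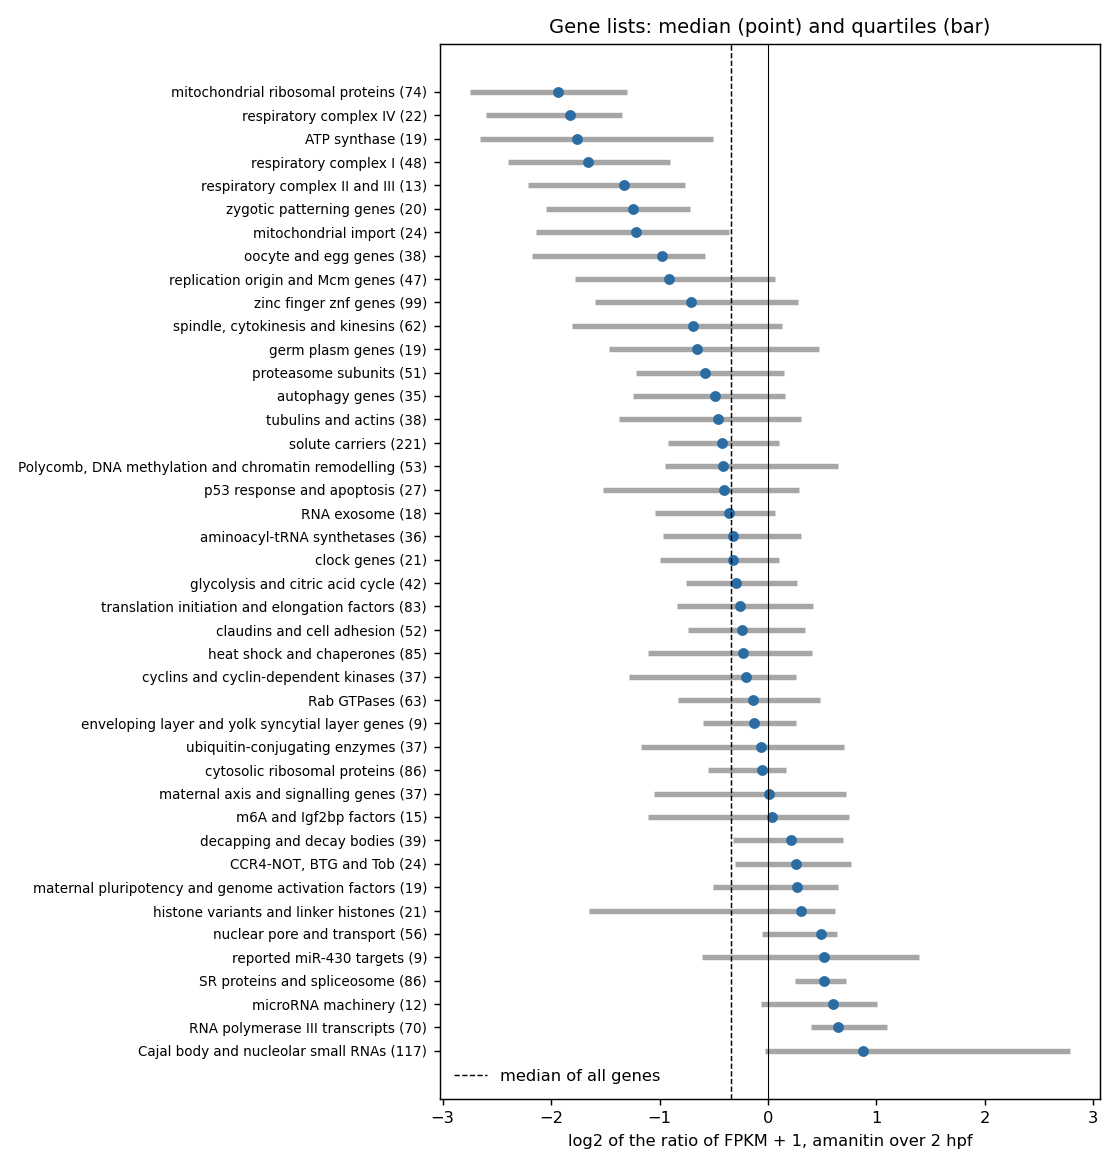
For each gene list, the point is the median log2 ratio of FPKM + 1, amanitin over 2 hpf, the bar spans the quartiles, the number of measured genes stands in parentheses and the dashed line marks the median of all genes. Lists of mitochondrial proteins lie at the low end, between -1.93 and -1.22, with zygotic patterning genes (-1.24, or -0.052 without an FPKM minimum) among them. Lists of small RNAs, the microRNA machinery, reported miR-430 targets, splicing and nuclear transport lie at the high end.

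Genes of cell division were read against the shares of all tested genes, 44.1% falling and 22.2% rising. Of 62 spindle, cytokinesis and kinesin genes, 40 fell and 14 rose in the authors' deposited table (64.5% and 22.6%), with a median of -0.69. The largest falls were those of cdca9, a borealin-like subunit of the chromosomal passenger complex, and of its partner birc5a, a survivin. The values of birc5a were 157 FPKM at 2 hpf, 6.38 in amanitin, 65.8 in control 6 hpf and 72 in control B. Those of cdca9 were 253, 6.41, 23.2 and 14.3. Amanitin was the lowest group for both, but birc5a stayed nearer its 2 hpf level in the controls. The motor gene kif19 rose from 4.72 to 11.7 FPKM.

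Cyclins and their kinases lay at the shares of all genes, with 16 falling (44.4%) and 8 rising (22.2%) of 36 tested in the authors' deposited table. The median was -0.20, or 0.13 centred on the median gene. Cyclin B3, ccnb3, stood at 121 FPKM at 2 hpf, 8.8 in amanitin, 155 in control 6 hpf and 151 in control B. The kinase cdk7, which activates other cyclin-dependent kinases and acts in transcription, stood at 78.7, 5.43, 48.4 and 47. Both were far lower in amanitin than in any other group. The cyclin ccng1 rose from 492 to 941 FPKM, and ccnk, a cyclin of transcription elongation, from 4.41 to 18.6. Among the most abundant RNAs that were not called, ccnb2 stood at 777 and 821 FPKM and ccne1 at 564 and 639.8. The controls had 295 and 214 FPKM of ccnb2.

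Genes of replication origins, the Mcm helicase and the fork had a median of -0.91. Of 47, 29 fell and 9 rose in the authors' deposited table (61.7% and 19.1%, against 44.1% and 22.2% of all tested genes). The helicase factor gins2 fell from 112 to 12.2 FPKM, with 28.9 and 19.8 in the controls. The helicase loader cdc6 rose from 166 to 316. Ubiquitin-conjugating enzymes divided evenly, with 14 falling and 15 rising of 37 in the authors' deposited table (38.9% and 41.7% of those tested). Their median was -0.063, or 0.27 centred on the median gene. The DNA repair enzyme ube2t fell from 89.8 to 3.4 FPKM, with 16.9 in control B, and the mitotic enzyme ube2c from 293 to 20.9, with 214 in control B. Proteasome genes had a median of -0.58, with 29 falling and 8 rising of 51 in the authors' deposited table (59.2% and 16.3% of those tested). The activator psme4b rose from 32.4 to 66.8 FPKM. The lowest ratio in that list belonged to psmc3ip, which the name pattern took in although it is a meiotic recombination factor and not a proteasome subunit.

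Histone variants and their chaperones went both ways, with 9 falling and 9 rising of 21 in the authors' deposited table. That is 42.9% each, against 44.1% falling and 22.2% rising of all tested genes. The stem-loop binding protein slbp, needed for histone messages, stood at 408 FPKM at 2 hpf, 35.7 in amanitin, 497 in control 6 hpf and 461 in control B. It was thus high in the 3 groups without amanitin and low in amanitin. Of the 53 genes of Polycomb, DNA methylation and chromatin remodelling, 24 fell and 19 rose in the authors' deposited table (45.3% and 35.8%). Their median was -0.41. The Polycomb ring finger genes bmi1b and pcgf1 fell, from 86.2 to 8.29 and from 78.4 to 8.22 FPKM, and stood at 8.19 and 12.2 in control B. The remodeller subunit smarcc1a rose from 14.2 to 62.6, with 36.9 and 59.7 in the controls.

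Signalling and pluripotency genes laid down in the egg had medians near 0. Maternal axis and signalling genes had a median of 0.011, or -0.029 after rescaling to equal sums. Of 37 measured, 14 fell and 15 rose in the authors' deposited table (37.8% and 40.5%, against 44.1% and 22.2% of all tested genes). The BMP receptor bmpr1ab stood at 23.2 FPKM at 2 hpf, 1.08 in amanitin, 20.1 in control 6 hpf and 23 in control B. The Wnt pathway inhibitor axin2 stood at 32.6, 2.47, 41 and 39.5. In both the controls had levels like those of 2 hpf while amanitin did not. The BMP transducer smad5 rose from 46.7 to 153 FPKM, with 61.2 and 116 in the controls, and the Wnt pathway repressor tcf7l1a from 3.71 to 16.5, with 18.7 and 40.6.

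Maternal pluripotency and genome activation factors had a median of 0.27, with 6 falling and 8 rising of 19 in the authors' deposited table. That is 33.3% and 44.4% of the 18 tested, against 44.1% and 22.2% of all tested genes. The T-box factor eomesa stood at 31.3 FPKM at 2 hpf, 111 in amanitin, 11.7 in control 6 hpf and 13 in control B, so it was high in amanitin alone. The Myc family gene mych went the other way, with 13.1, 2.09, 570.0 and 451 FPKM. Its relative mycb fell from 24.5 to 2.36, and was also low in the controls, at 5.66 and 4.3.

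Small RNAs, placeholder names and rows that share a locus left aside, the highest in amanitin of the genes at least 2-fold higher was oaz1a, the antizyme that limits polyamine synthesis, with 515 FPKM at 2 hpf, 1212 in amanitin, 681 in control 6 hpf and 881 in control B. The cytoskeletal genes actb2 and pfn2, a beta-actin and a profilin, came next to it with the chromatin protein hmga1a. For actb2 the values were 478, 990.1, 1123 and 1319 FPKM, and for pfn2 345, 699.8, 166 and 182. While actb2 was also high in the controls, pfn2 was below its 2 hpf level there. For hmga1a they were 351, 848, 1979 and 3211.

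The poly(A)-binding protein gene pabpc1a rose from 241 to 552 FPKM, with 531 in control 6 hpf and 670.2 in control B. The largest ratio of these 12 genes was that of the lysosomal membrane protein lamp2, at 4.2-fold, with 127 FPKM at 2 hpf, 536 in amanitin, 134 in control 6 hpf and 288 in control B. The chaperonin subunit cct8 rose from 244 to 501 FPKM, the transcription factor sall4 from 167 to 442 and the splicing factor SRSF7 from 170.1 to 385. Rises were also called for the cleavage factor cstf1 (166 to 354 FPKM), the 14-3-3 protein ywhae1 (146 to 333) and the methionine adenosyltransferase mat2aa (141 to 327). All 12 had a q of 0.000123 in the authors' deposited table.

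Abundant RNAs that were within 1.2-fold and not called included actb1, the other beta-actin, at 1059.5 FPKM at 2 hpf and 1073 in amanitin. The ferritin heavy chain fth1a stood at 825 and 949, the calcium-binding protein s100a1 at 1329 and 1183, and the cholesterol carrier npc2 at 528 and 584. The gene pnrc2, a decapping coactivator, stood at 1353 and 1600.2 FPKM, against 4449.6 and 4198 in the 6 hpf controls, and bzw1b at 586 and 512. These 8 genes, ccnb2 and ccne1 among them, had a q in the authors' deposited table between 0.111 and 0.908, which does not show that they were equal.

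Most splicing factors rose. Of 86 SR proteins, spliceosome subunits and hnRNP proteins, 59 rose and 10 fell by the authors' deposited table, which is 68.6% rising where 22.2% of all tested genes did. The median was 0.52 and the quartiles 0.25 and 0.72. The splicing coactivator srrm1 stood at 9.96 FPKM at 2 hpf, 65.7 in amanitin, 62.2 in control 6 hpf and 94.7 in control B. The branch point factor sf1 stood at 28.8, 102, 93.2 and 124. Both were higher in all 6 hpf groups than at 2 hpf, amanitin included. The exceptions were led by the Sm protein snrpd2, a small core subunit of the spliceosome's RNA-protein particles, which fell from 114 to 14.9 FPKM, with 193 and 202 in the controls.

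Nuclear pore and transport genes had a median of 0.49. By the calls of the authors' deposited table, 30 of 56 rose and 10 fell. That is 53.6% and 17.9%, against 22.2% and 44.1% of all tested genes. The pore proteins nup214 and pom121 rose, from 2.34 to 12 and from 9.83 to 37 FPKM. The import adaptors kpna2 and kpna7, importin alpha proteins, fell. The values of kpna2 were 441 FPKM at 2 hpf, 30.7 in amanitin, 199.8 in control 6 hpf and 203 in control B. Those of kpna7, an oocyte form in mammals, were 238, 33, 34.7 and 25.4. So kpna7 was low in every 6 hpf group and kpna2 lowest in amanitin.

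**Figure D4:**
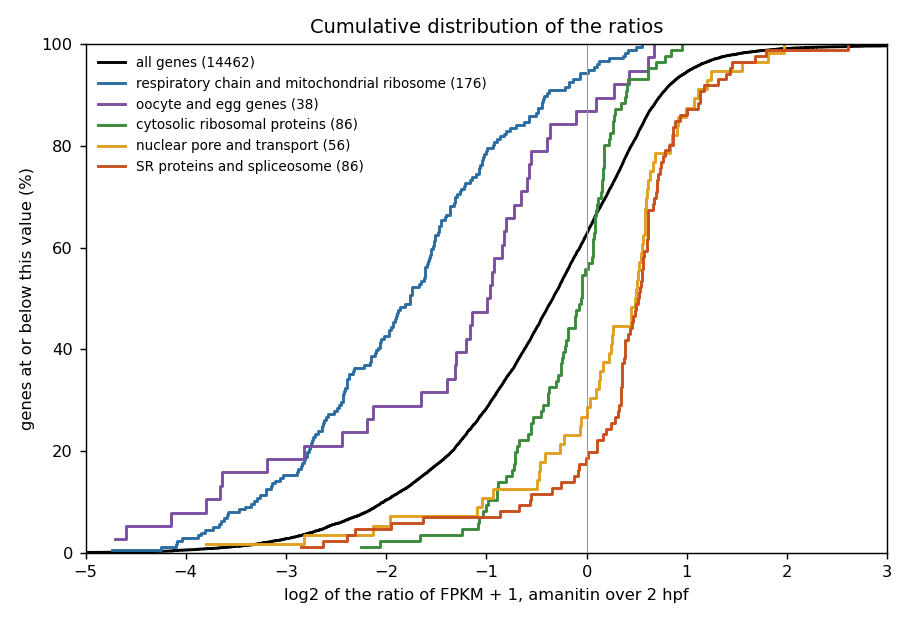
The curves give the percentage of genes of each group (vertical axis) at or below a given log2 ratio of FPKM + 1, amanitin over 2 hpf (horizontal axis). The curve of the respiratory chain and the mitochondrial ribosome (176 genes, median -1.76) lies left of that of all genes, and those of splicing and nuclear transport lie right of it over most of their range.

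Genes of RNA degradation went both ways. In the CCR4-NOT, BTG and Tob list 10 rose and 6 fell of 24 in the authors' deposited table, with a median of 0.26. That is 41.7% rising and 25% falling, against 22.2% and 44.1% of all tested genes. The catalytic deadenylase cnot6 rose from 91.7 to 228 FPKM, with 83.3 and 141 in the controls. The scaffold cnot1, on a row that overlaps another gene, rose from 17.4 to 60.5. After btg4, the largest fall was that of the subunit cnot10, from 66.3 to 12.3, with 33.6 and 31.3 in the controls. Decapping and decay body genes had a median of 0.21, with 16 rising and 10 falling of 39 in the authors' deposited table (41% and 25.6%). The decapping cofactor dcp1b rose from 3.86 to 11.4 FPKM. The AU-rich element binding protein zfp36l2 fell from 59.3 to 8.22 and the U6-associated protein lsm8 from 87.7 to 15.1.

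For the exosome, the complex that degrades RNA from its 3′ end, the median was -0.36, with 9 falling and 4 rising of 18 in the authors' deposited table. That is 50% and 22.2%, against 44.1% and 22.2% of all tested genes. Its subunits exosc3 and exosc4 fell, from 39.6 to 8.36 and from 169.8 to 43.2 FPKM, while exosc1 rose from 3.48 to 29.1. The microRNA machinery had a median of 0.60, with 7 rising and 2 falling of 12 in the authors' deposited table (58.3% and 16.7%). The nuclease dicer1, which cuts microRNA precursors, stood at 18.7 FPKM at 2 hpf, 65 in amanitin, 11.4 in control 6 hpf and 16.9 in control B. The Argonaute gene EIF2C1 stood at 14.6, 34.3, 7.71 and 7.3. For both genes amanitin was the highest of the 4 groups. Genes of m6A and the Igf2bp proteins had 6 rising and 6 falling of 15 in the authors' deposited table (40% each). The m6A reader ythdf3 rose from 29 to 77.5 FPKM, with 21.1 in control B, and the demethylase fto fell from 19.8 to 5.77, with 3.81 in control B.

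Cytosolic ribosomal protein genes had a median near 0, at -0.054, or 0.28 centred on the median gene, with quartiles of -0.55 and 0.17. Of 86 measured, 28 fell and 10 rose in the authors' deposited table (32.6% and 11.6%, against 44.1% and 22.2% of all tested genes). Their summed FPKM was 16078 at 2 hpf and 15551 in amanitin, against 29687 in control 6 hpf and 29751 in control B. The stalk protein rplp2 fell from 23.3 to 4.09 FPKM and rps27.2 from 36.2 to 7.89, whereas rpl28 rose from 82.6 to 149.

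Translation factors had a median log2 ratio of -0.26 (0.080 when centred on the median gene), with 33 falling and 23 rising of 83 in the authors' deposited table. The factor eif5a rose from 103 to 317 FPKM, with 173 and 309 in the controls, and the cap-binding protein gene eif4ea fell from 21.3 to 2.69, with 27.4 and 29.9. Aminoacyl-tRNA synthetases had a median log2 ratio of -0.32 (0.011 when centred on the median gene), with 16 falling and 9 rising of 36 in the authors' deposited table. Named by the lowest ratios were the mitochondrial enzymes pars2, from 31.8 to 1.54 FPKM, and hars2, from 32.8 to 4.48. Named by a high ratio was eprs, the cytosolic enzyme for glutamate and proline, from 35.4 to 71.4. Of the translation factors tested, 39.8% fell and 27.7% rose. Of the synthetases 44.4% fell and 25% rose, against 44.1% and 22.2% of all tested genes.

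Other cellular lists lay near the median of all genes. Heat shock and chaperone genes had 37 falling and 26 rising of 85 in the authors' deposited table, with a median of -0.23 (0.10 centred on the median gene). Autophagy genes had 17 falling and 6 rising of 35 in the authors' deposited table and a median of -0.49, led by the conjugation factor atg12 at 51.5 FPKM at 2 hpf and 1.05 in amanitin. Apoptosis and p53 response genes had 12 falling and 6 rising of 27 in the authors' deposited table, and the pro-apoptotic gene bida fell from 22.9 to 1.07 FPKM. Clock genes had 10 falling and 2 rising of 21 in the authors' deposited table, with the activator arntl1a falling from 106 to 20.9 and its paralog arntl2 rising from 63 to 87.7. Of those tested, 43.5%, 48.6%, 44.4% and 47.6% fell in that order of lists, against 44.1% of all genes. The shares rising were 30.6%, 17.1%, 22.2% and 9.5%, against 22.2%.

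Trafficking, adhesion and transport genes held members that moved far in both directions. Rab GTPases and their effectors had 24 falling and 19 rising of 63 in the authors' deposited table, among them the early endosome gene rab5aa, which rose from 14.8 to 47.2 FPKM. Adhesion genes had 19 falling and 14 rising of 52 in the authors' deposited table, with the integrin itgb6 falling from 28.3 to 2.05 and the junction scaffold tjp1a rising from 12.3 to 42.7. Tubulins and actin genes had 20 falling and 10 rising of 38 in the authors' deposited table, with the Arp2/3 subunit arpc5b falling from 39.3 to 3.01. Solute carriers had 103 falling and 32 rising of 221 in the authors' deposited table, with the mitochondrial carrier slc25a39 falling from 159.9 to 8.15 and the chloride cotransporter slc12a2 rising from 62.3 to 155. Of those tested, 39.3%, 38.8%, 52.6% and 48.1% fell in that order of lists, against 44.1% of all genes. The shares rising were 31.1%, 28.6%, 26.3% and 15%, against 22.2%. The medians were -0.14, -0.24, -0.46 and -0.43 in that order. Centred on the median gene those of Rab and adhesion genes were 0.20 and 0.095.

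Small noncoding RNAs held a larger share of summed FPKM in amanitin than at 2 hpf. Rows named as small RNAs held 12.9% of all summed FPKM at 2 hpf, 21.8% in amanitin, 27.6% in control 6 hpf and 27.2% in control B. Short RNAs are poorly captured by such libraries and many rows are near-identical copies, so their values are uncertain. Of 60 rows of RNA polymerase III transcripts tested in the authors' deposited table, 42 rose and 1 fell. That is 70% rising where 22.2% of all tested genes did. However, 53 of these rows are copies of a single kind of RNA, Metazoa_SRP, of which 37 rose and 1 fell. The rows therefore do not count as separate RNAs. The 7SK RNA, which restrains the elongation factor P-TEFb, is the row rn7sk (ENSDARG00000081270, chromosome 13, 697629 to 697951). It stood at 395 FPKM at 2 hpf, 10103 in amanitin, 25980.1 in control 6 hpf and 27214 in control B. Amanitin lay far above 2 hpf and below both controls, and the rise from 2 hpf was 25.5-fold.

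The signal recognition particle RNA, with 60 measured rows named Metazoa_SRP, summed to 55922 FPKM at 2 hpf, 93271 in amanitin, 96188 in control 6 hpf and 71114 in control B. Nuclear RNase P RNA (RNaseP_nuc) summed to 4913, 11639, 13382 and 16684 FPKM. The nucleolar guide RNAs of the C/D box type (SNORD), which in vertebrates are mostly cut from introns of messages, summed to 1709, 3532, 64978 and 82539.7. For SNORD, amanitin stood much nearer to 2 hpf than to the controls. The nucleolar RNA rows named SNORA summed to 5149, 10090, 19596 and 22096 FPKM in the same order of groups. RNase MRP RNA, of the polymerase III list, summed to 700, 1422, 2432 and 2550. In both, amanitin lay between 2 hpf and the controls. Whether these differences go with the polymerase was not tested. Of the 64 nucleolar and Cajal body RNAs tested in the authors' deposited table, 5 rose and 0 fell. That is 7.8% and 0%, against 22.2% and 44.1% of all tested genes. At an unadjusted p under 0.05 from Cuffdiff, 6 were higher and 0 lower, and 103 of the 117 measured share their locus with another row.

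The ratio went with the length of the genomic locus. Genes were split by locus length into 5 groups of equal size. In the group with the shortest loci, up to 6631 bases, the median log2 ratio was -0.67, and 53.5% of those tested fell and 16.5% rose in the authors' deposited table. The next groups had medians of -0.51, -0.30 and -0.19. In the group with the longest loci, from 52160 bases, the median was -0.094, and 32.2% fell and 27% rose in the authors' deposited table. Locus length is not transcript length, and a locus can span overlapping genes. Mitochondrial genes had short loci, and the part of length in their values was not tested. The 176 genes of the respiratory complexes and the mitochondrial ribosome had a median of 7281 bases. Their median log2 ratio was -1.94 for the 138 with loci no longer than the median gene's and -1.5 for the 38 longer ones. All genes in the same length classes had -0.54 and -0.16. Splicing genes had 0.50 for 64 shorter and 0.54 for 22 longer loci. The standard deviation of the ratio over genes was 1.01 in the lowest of 5 equal groups by 2 hpf FPKM and 1.30 in the highest. Genes of the lowest group had at most 3.55 FPKM at 2 hpf. There the pseudocount of 1 narrows the ratio, so the groups cannot be compared in spread.

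Chromosomes 22 and 4 had the lowest medians. Chromosome 22 had a median log2 ratio of -0.89 over 559 genes and chromosome 4 of -0.61 over 482, while the others lay between -0.43 (chromosome 24) and -0.086 (chromosome 11). By stretches of 5 Mb, the medians of chromosome 22 ran from -1.57 (0 to 5 Mb), -1.25 (25 to 30 Mb), -1.05 (5 to 10 Mb) and -0.67 (10 to 15 Mb) up to -0.050 (20 to 25 Mb). Within the first of these, a stretch from 1250001 to 3250000 on Zv9 was lower still, with limits that were chosen after the values were seen, so the values there are a description. The 107 genes in that stretch had a median of -2.11, and 70 fell and 1 rose of 102 tested in the authors' deposited table. That is 68.6% and 0.98%, against 44.1% and 22.2% of all tested genes. The median FPKM of the stretch was 9.4 at 2 hpf, 1.35 in amanitin, 10.5 in control 6 hpf and 10.1 in control B. The genes between the start of the chromosome and that stretch had a median of -0.49, and the 19 genes after it, up to 5000000, of -0.72.

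Of the genes in that stretch, 100 carry placeholder names. The reference list of names or the table calls 18 of them znf or zfp, names given to zinc finger genes, a family of DNA-binding proteins. As 49 share a locus with another row and such genes stand in near-identical copies, single values are uncertain. The 58 with a locus of their own had a median of -1.85. Over the whole genome, genes with a znf or zfp name had a median of -1.83 on chromosomes 4 and 22 (36 genes) and -0.62 elsewhere (117 genes). Chromosomes 4 and 22 were picked for their low medians in these same ratios, and 18 of the 36 genes lie in that stretch. A lower value there was thus built in, and the split is a description only. In the list of znf genes 54 fell and 19 rose of 99 in the authors' deposited table (54.5% and 19.2%). Of all tested genes 44.1% fell and 22.2% rose. Of the 99, 98 reached 1 FPKM at 2 hpf and 89 in amanitin, so some had to be lower. On rows that share a locus, znf143b fell from 90 to 5.5 FPKM and znf277 from 62.5 to 8. The gene znf865 rose from 15.5 to 57.7 FPKM and znf346, which binds double-stranded RNA in mammals, from 35.3 to 94.5.

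**Figure D5:**
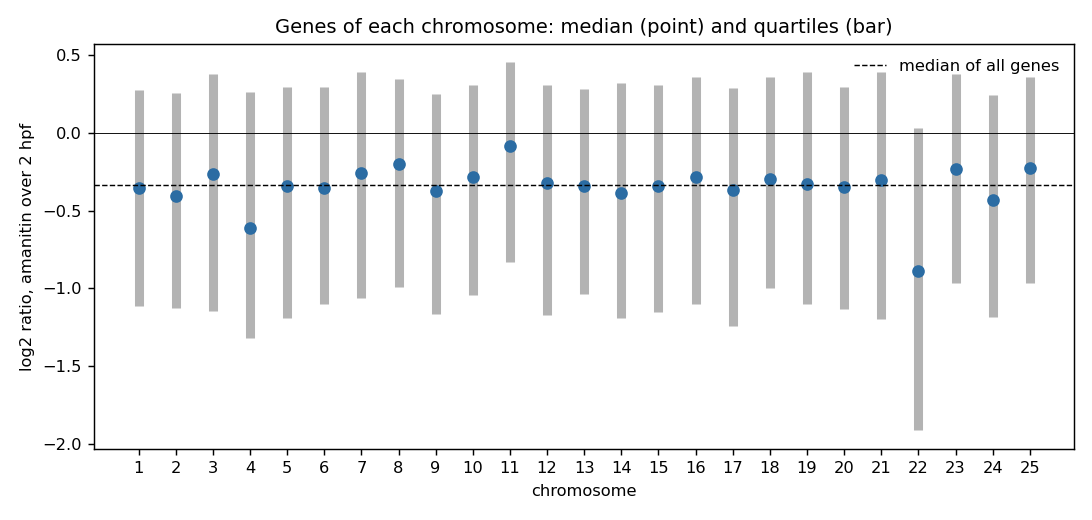
For each of the 25 chromosomes (horizontal axis) the point is the median log2 ratio of FPKM + 1, amanitin over 2 hpf (vertical axis), of its measured genes, the bar spans the quartiles and the dashed line marks the median of all genes. Chromosome 22 lies lowest at -0.89, followed by chromosome 4 at -0.61.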

How the data were processed

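Per the labels' protocols, total RNA of pooled whole embryos was depleted of ribosomal RNA and made into stranded libraries. The submitters' processing notes name TopHat 1.4.0, Cuffdiff 2.1.1 and the Zv9 (danRer7) genome. The authors deposited FPKM of both groups of each of 5 comparisons, with their p-values and q-values, per the file headers. The annotation release, the strand setting and the scaling of libraries against each other are not given in the sources read here. The labels do not say whether the stated triplicates came from different clutches, so the deposited q-values may measure technical spread only.

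From the FPKM of the comparison of 2 hpf with amanitin, log2 ratios with a pseudocount of 1 were computed for genes at FPKM 1 or more in either group. The pseudocount makes changes of low genes look smaller. Calls are the authors' q under 0.05, which matched their own calls in all 32571 rows. The authors tested 13957 of these genes and left 505 untested. No p-value was computed. Control values come from the comparisons of 6 hpf with 2 hpf and of control B with amanitin, and share the 2 hpf or amanitin embryos with the values described. List members are rows, found by symbol or name pattern, and 19.6% of genes share a locus with another row. Loci are given as deposited. For all 43 lists and the named genes, the choice was made with earlier results of these data known. Named were the 12 most abundant genes at least 4-fold lower, the 12 at least 2-fold higher and 8 within 1.2-fold, leaving out placeholder names, shared symbols or loci and small RNAs. From each list up to 2 called members with the lowest and the highest ratio and an FPKM of at least 5 were added. Some genes that this rule names are not reported here. Alternatives were other pseudocounts, minimums, folds, scalings and rows. The computation was tested on simulated FPKM with known changes. Python 3.11.15 with numpy 2.4.6 and pandas 2.3.3 was used.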

Additional observations from a re-analysis of the deposited data

How the results depend on the processing

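No paired analysis was possible because each group has 1 deposited value per gene, so no replicate could be left out either. By size, 4098 genes were at least 2-fold lower and 795 higher. These counts were 2631 and 479 with a pseudocount of 5, and 1501 and 128 at 4-fold. The count of higher genes was 2126 at 1.5-fold and 1771 when centred on the median gene. Of the genes that fell or rose in the authors' deposited table, 3732 and 668 were also at least 2-fold apart. Other alternatives moved these counts by less than 1.5 times. The named genes had 1068 values under other pseudocounts, scalings and deposits. These include the values of the 8 genes that were not called, which were compared by size and not by sign. No called ratio changed sign. This was largely fixed in advance. A pseudocount cannot change the sign of a ratio, and the scalings shift log2 ratios by about 0.34 at most. In the other deposits 73.5% of the 2 hpf and 73.9% of the amanitin values are identical.

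Medians of 12 of 42 lists changed sign in 20 of 420 alternatives, by the alternative's own construction as a shift or another choice of genes. Centred on the median gene, they were 0.28 for cytosolic ribosomal proteins, 0.080 for translation factors, 0.011 for tRNA synthetases, 0.13 for cyclins, 0.10 for chaperones, 0.27 for ubiquitin-conjugating enzymes, 0.20 for Rab GTPases, 0.095 for adhesion, 0.041 for glycolysis, 0.016 for clock genes and 0.21 for the enveloping and yolk layers. With no FPKM minimum the medians were -0.015 for signalling, 0.017 for the enveloping and yolk layers, 0.026 for ubiquitin-conjugating enzymes and 0.014 for Rab GTPases. With a minimum of 5 they were 0.047 for the enveloping and yolk layers and 0.13 for adhesion. The zygotic patterning median of -1.24 kept its sign but was -2.22 with a pseudocount of 0.1, -0.42 with 5, -2.22 with a minimum of 5 and -0.052 with none. Rescaled to equal sums the signalling median was -0.029. With sums taken without small RNA rows, an alternative chosen after seeing the data, the medians were 0.060 for cytosolic ribosomal proteins and 0.048 for ubiquitin-conjugating enzymes. The deposited values give no read depth, so the precision of low FPKM is unknown.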

Other observations

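The genes of this paragraph were named after their values were seen. Nanog, Pou5f1 and SoxB1 factors activate the zebrafish genome. Of their genes, nanog, pou5f1 and sox19b rose in the authors' deposited table by less than 1.5-fold. The SoxB1 gene sox3 (1.08 and 0.50 FPKM) was not called, and sox19a was below 1 FPKM in both groups. The gene nanog stood at 485 FPKM at 2 hpf and 600.2 in amanitin, pou5f1 at 281 and 413, and sox19b at 289.9 and 376. The genes mos, cdk1, aurka and dazl fell in that table of the authors. The kinase mos, which holds the egg in meiotic arrest, stood at 170.2 and 12.8 FPKM, the mitotic kinases cdk1 and aurka at 127 and 11.4 and at 329 and 67.4, and the germ cell RNA-binding protein gene dazl at 209 and 52.2. The maternal linker histone h1m and the DNA methyltransferase dnmt1 also fell. The first stood at 1064 and 339 FPKM and dnmt1 at 516 and 219. The cytoplasmic exonuclease xrn1 rose in it, from 41 to 98.3 FPKM.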
